A study of Mus musculus with 6 samples.

Results

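The nuclear genes for the subunits of respiratory complexes II, III, IV and V, with cytochrome c, were followed in the left ventricle of chow-fed mice and of mice with heart failure with preserved ejection fraction (HFpEF). Members were taken by symbol from the table of expression values. They were the protein-coding genes named Sdha, Sdhb, Sdhc, Sdhd, Cyc1 or Cycs, or whose symbol begins with Uqcr, Cox4, Cox5, Cox6, Cox7, Cox8 or Atp5. Of 54532 genes in the table, 58 matched these symbols, and 8 of those were pseudogenes and were left out. The 50 genes that remained comprised 4 of complex II, 9 of complex III, 18 of complex IV, 18 of complex V and 1 of cytochrome c. Atp5o was listed under a pair of identifiers, so the 50 genes carry 49 symbols.

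RNA sequencing covered 3 Chow and 3 HFpEF hearts, each from a different mouse. The mice were male C57BL/6, 6 to 8 weeks old at the start. The tissue was left ventricular myocardium by the study's methods, whereas the sample labels name the heart only. HFpEF mice received a high-fat diet with 60% of energy from fat for 12 weeks, and drank water with 0.5 g/L of L-NAME, which blocks the enzymes that make nitric oxide. Chow mice received standard chow and plain water over the same time. Both groups carried no engineered allele, and diet and L-NAME were given together, so their parts cannot be told apart.

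The respiratory chain in the inner mitochondrial membrane passes electrons from fuels to oxygen and pumps protons. Complex II (succinate dehydrogenase) feeds complex III (the cytochrome bc1 complex) through ubiquinone, and complex III feeds cytochrome c. Complex IV (cytochrome c oxidase) hands the electrons of cytochrome c to oxygen, and complex V (ATP synthase) uses the proton gradient to make ATP. Cardiac muscle is among the tissues richest in mitochondria, and it uses heart and muscle forms of several complex IV subunits in place of the forms found in most cells.

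The HFpEF libraries differed in more than these genes. The read total recovered for a library was between 13076772 and 15574914 in Chow and between 13461735 and 16027084 in HFpEF. Mitochondrially encoded RNA took 24.0 to 26.0% of reads in Chow, and 22.6, 20.1 and 7.17% in HFpEF replicates 1, 2 and 3. All 12 markers of ventricular cardiomyocytes were detected and their summed FPKM (fragments scaled to exon length and library size) was 19500 to 21424 in Chow against 9643 to 14784 in HFpEF. The 10 fibroblast markers summed to 250 to 295 in Chow, to 499.8 and 570 in HFpEF replicates 1 and 2, and to 5645 in HFpEF replicate 3. Adipocyte markers summed to at most 0.048 FPKM in Chow and to 36.6 to 89.3 in HFpEF. Atrial markers summed to 28.7, 33.2 and 567 in Chow, and to 2538, 3979 and 31.9 in HFpEF. HFpEF replicate 3 therefore stood apart in mitochondrially encoded RNA and fibroblast markers, and the main counts are given with and without it. In atrial markers, however, HFpEF replicates 1 and 2 were the high ones. The fit without replicate 3 therefore keeps the libraries with the highest atrial sums. In a bulk sample, fewer cells of a type and less RNA per cell cannot be told apart.

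Expression of this gene group was lower in HFpEF hearts. Of 50 members, 47 reached an FPKM of 0.5 in 3 or more libraries and were tested. The other 3 were the testis forms Cox7b2, with an FPKM of 0 to 0.943, and Cox8c, and the second Atp5o identifier, and the latter pair was listed at 0 in every library. All 50 members together summed to an FPKM of 16087, 16744 and 16904 in Chow and of 11201, 11985 and 7483 in HFpEF. Members made up 6.34 to 6.54% of the FPKM of nuclear genes in Chow and 5.08, 5.33 and 3.72% in HFpEF. The groups did not overlap on either measure. These are abundant transcripts, since 42 of the 47 had a mean FPKM of at least 100 in Chow and 19 were among the 100 most abundant nuclear genes. In the middle of the list, a member stood at 62.1% of its Chow mean in the HFpEF group.

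The fitted log2 fold change (HFpEF minus Chow, limma) was negative for 47 of 47 members, against 51.2% of all 14225 genes tested. Its median was −0.72, against −0.01 over all genes tested, and it ran from −1.07 for Cox7a1 to −0.05 for Cox6b2. Most values lay close together, with 33 members between −0.9 and −0.5, 8 below and 6 above. In 45 members every HFpEF library was below every Chow library, whereas 19.7% of all genes showed this order. Under quantile normalization the median was −0.33, against −0.05 over all genes, and 43 members were negative. Lower values at an unadjusted limma p under 0.05 were then found for 23 members (11.8% of all genes). With equal sums of nuclear genes the median was −0.47, against 0.23 over all genes, and 45 members were negative. With that scaling 29 members were lower at that p (4.27% of all genes). With the original scaling, an unadjusted limma p under 0.05 was reached by 42 members with lower values in HFpEF (13.1% of all genes) and by 0 members with higher values (10.2% of all genes). After Benjamini-Hochberg adjustment over all 14225 genes, 0 members passed an adjusted p of 0.05 in limma, and across the table only 1 gene with lower values did, or 0.00703%. The lowest adjusted p of a member was 0.108, for Atp5l. Relative to the 12 cardiomyocyte markers, a scaling chosen after the data were seen, the members' median was −0.04 and 26 of 47 were negative, while the median of all genes moved to 0.65.

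HFpEF replicate 3 carried the lowest value of the 6 libraries for 45 of the 47 members. The share of all genes with that order was not computed. The median member stood at 68.4% of its Chow mean in HFpEF replicate 1, at 72.0% in replicate 2 and at 46.7% in replicate 3. Replicates 1 and 2 were each below the lowest Chow library for 45 members, and both were for the same 45 (23.9% of all genes). These are the 45 with separate groups in all 6 libraries, so their order without replicate 3 was already fixed. Without HFpEF replicate 3, 46 of 47 members were negative and the median log2 fold change was −0.50. In that fit 35 of 47 members fell at an adjusted p under 0.05 in limma, against 5.36% of all genes. None rose. The lowest adjusted p was then 0.0128, for Uqcrc1. Passing members comprised 4 of 4 in complex II, 8 of 9 in complex III, Cycs, 9 of 16 in complex IV and 13 of 17 in complex V.

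**Figure D1:**
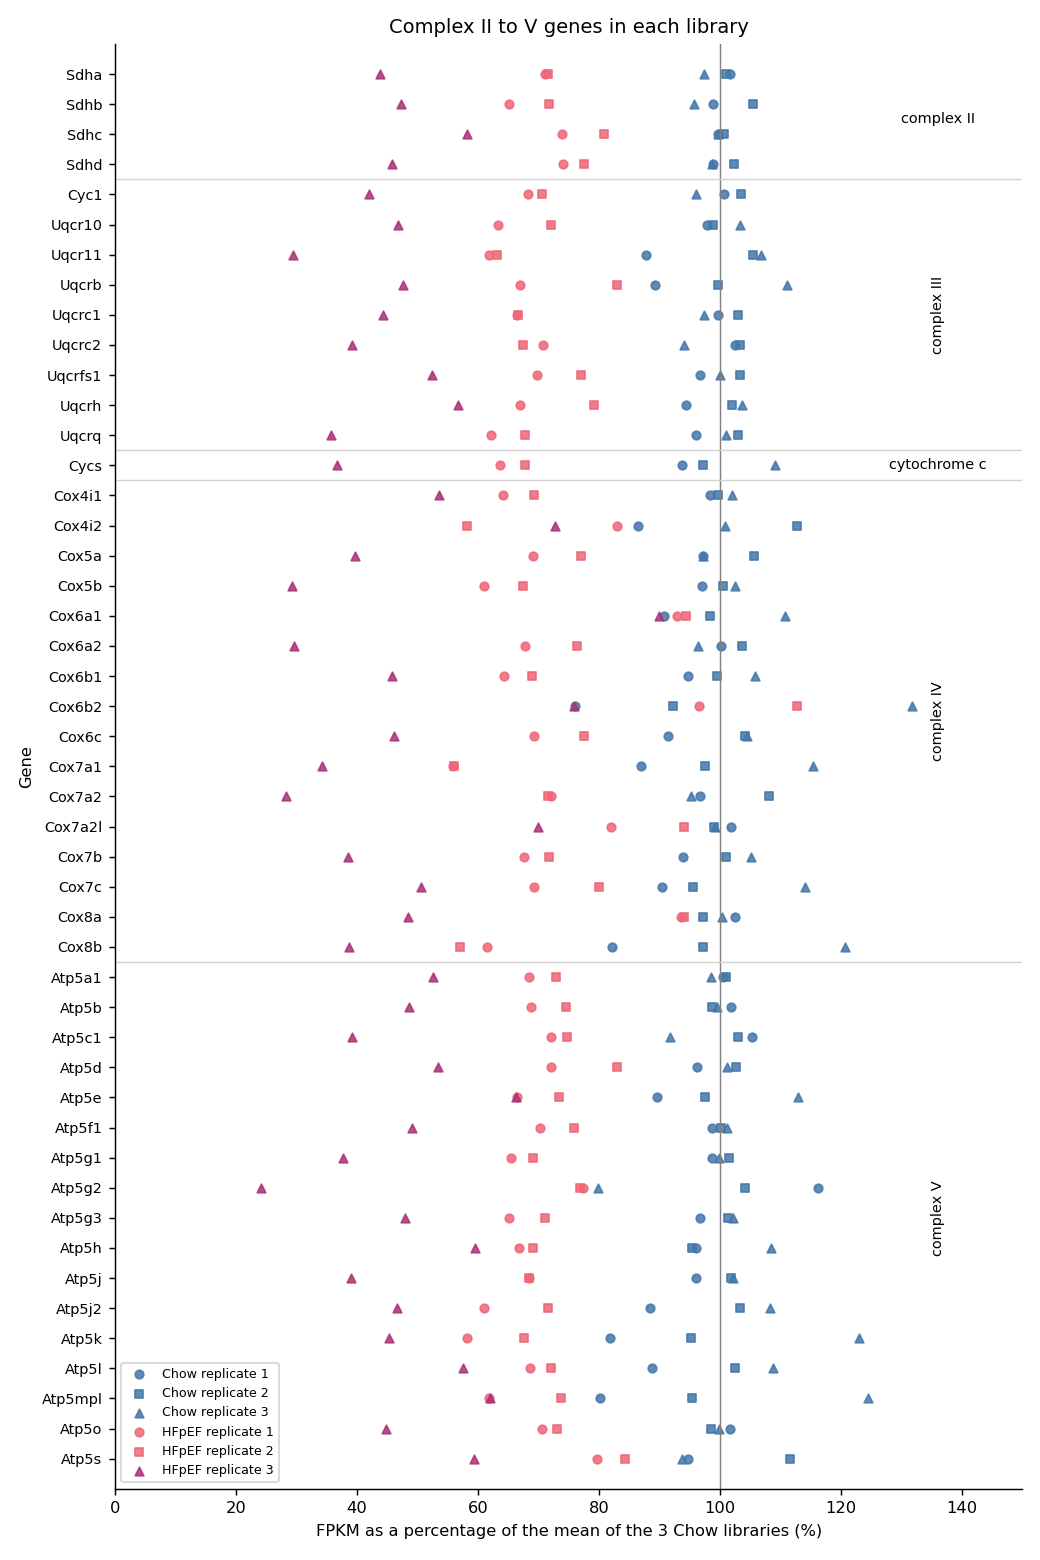
FPKM of each tested gene in each library, as a percentage of its mean over the 3 Chow libraries, with genes on the vertical axis and 1 point per library. Points of HFpEF replicate 3 lie furthest left for 45 of 47 genes, with a median of 46.7%, and Cox6a1 and Cox6b2 are the genes whose groups overlap.

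Complex II, the only one of these complexes with no mitochondrially encoded subunit, was lower throughout. Sdha, the flavoprotein that oxidises succinate, measured 439, 436 and 420 FPKM in Chow and 307, 309 and 189 in HFpEF. The log2 fold change was −0.72 ± 0.22 (SE, n = 3 per group, limma adjusted p = 0.146). Sdhb, the iron-sulphur subunit, measured 381, 406 and 368 FPKM in Chow and 250.5, 276 and 182 in HFpEF, a log2 fold change of −0.73 ± 0.19 (SE, limma adjusted p = 0.119). In both genes the third HFpEF library was lowest and the groups were separate. Sdhc, a membrane anchor, was the steadiest member among Chow mice, with a coefficient of variation of 0.639%, and measured 124, 126 and 124 FPKM. In HFpEF it measured 92.0, 101 and 72.5, a log2 fold change of −0.51 ± 0.15 (SE, limma adjusted p = 0.140). Sdhd, the other anchor, had a log2 fold change of −0.64. The median of the complex was −0.68. Relative to cardiomyocyte markers it was −0.0025, and Sdhc was then at 0.17.

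All 9 genes of complex III had separate groups (19.7% of all genes), with a median log2 fold change of −0.77. Uqcrfs1, the Rieske iron-sulphur protein and the most abundant gene of the complex, measured 590, 630 and 610 FPKM in Chow and 426, 470 and 320 in HFpEF (log2 fold change −0.61 ± 0.19, SE, limma adjusted p = 0.146). Uqcrc1, a core subunit, measured 352, 363 and 344 FPKM in Chow and 234, 235 and 156 in HFpEF. Its log2 fold change was −0.79 ± 0.19 (SE, limma adjusted p = 0.118), and −0.59 without HFpEF replicate 3. The small subunits followed the same order. Uqcr10 measured 313, 316 and 330 FPKM in Chow and 202, 230 and 149 in HFpEF. Uqcrq, which lies near the quinone site, measured 245, 263 and 258 FPKM in Chow and 159, 173 and 91.2 in HFpEF, a log2 fold change of −0.91 ± 0.25 (SE, limma adjusted p = 0.127). Uqcr11 had the most negative value of the complex, −1.04, and Uqcrh the least, −0.58. Cyc1, which carries the haem of cytochrome c1, had a log2 fold change of −0.77.

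Cycs, the mobile carrier between complexes III and IV, measured 116, 120 and 134 FPKM in Chow. In HFpEF hearts the level was 78.4, 83.6 and 45.2, with no overlap. The log2 fold change was −0.88 ± 0.25 (SE, limma adjusted p = 0.129), and −0.60 without HFpEF replicate 3, where the adjusted p was 0.0176. Relative to cardiomyocyte markers the value remained negative, at −0.20.

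Complex IV was the most uneven of the complexes. Its 16 tested genes had a median log2 fold change of −0.72, with a standard deviation of 0.31 against 0.15 in complex III and 0.13 in complex V. The range ran from −1.07 to −0.05, and 12 of the 16 had an unadjusted limma p under 0.05 (13.1% of all genes). Cox4i1, the regulatory subunit found in most tissues, measured 946, 959 and 981 FPKM in Chow and 616, 667 and 516 in HFpEF (log2 fold change −0.69 ± 0.17, SE, limma adjusted p = 0.118). Cox6b1, a subunit at the dimer interface, measured 539, 568 and 603 FPKM in Chow and 367, 392 and 261 in HFpEF. Cox7b, a small membrane subunit, measured 285, 306 and 319 FPKM in Chow and 205, 218 and 117 in HFpEF (log2 fold change −0.81 ± 0.25, SE, limma adjusted p = 0.153). Each of these genes had separate groups. Cox7a2l, which links complexes III and IV in supercomplexes, had a log2 fold change of −0.30 (limma adjusted p = 0.270).

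Tissue forms of complex IV were then set beside the forms found in most cells. Cox6a2, the heart and muscle form of subunit 6a, is at chr7:128205435-128206387 on the minus strand (GRCm38) and was the most abundant complex IV member. It measured 1377, 1424 and 1324 FPKM in Chow and 932, 1051 and 408 in HFpEF, a log2 fold change of −0.90 ± 0.37 (SE, limma adjusted p = 0.208). Cox6a1, the ubiquitous form (chr5:115345642-115348981, minus strand), measured 105, 114 and 129 FPKM in Chow and 108, 110 and 104 in HFpEF. The groups overlapped, with a log2 fold change of −0.11 and a 95% interval of −0.41 to 0.19 that turned positive under 3 of the scalings. The ratio of Cox6a2 to Cox6a1, which needs no scaling between libraries, was 13.1, 12.5 and 10.3 in Chow and 8.64, 9.58 and 3.90 in HFpEF. All HFpEF ratios were below all Chow ratios, and the log2 difference was −0.79 (exact two-sided permutation p = 0.1, the smallest that 3 mice against 3 allow, adjusted p = 0.233 over 7 pairs). Without HFpEF replicate 3 it was −0.38.

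Ratios for subunit 8 were also separate. Cox8b, the heart and muscle form (chr7:140898945-140900446, minus strand), measured 612, 725 and 899 FPKM in Chow and 458, 425 and 288 in HFpEF, a log2 fold change of −0.94 ± 0.24 (SE, limma adjusted p = 0.119). Cox8a, the ubiquitous form (chr19:7215153-7217616, minus strand), measured 152, 145 and 149 FPKM in Chow and 139, 140 and 72.0 in HFpEF. Only HFpEF replicate 3 was far from the Chow libraries for Cox8a, and the log2 fold change was −0.41 ± 0.27 (SE, limma adjusted p = 0.381), or −0.09 without that library. The Cox8b to Cox8a ratio was 4.02, 5.01 and 6.03 in Chow and 3.29, 3.04 and 4.00 in HFpEF. These ratios did not overlap either, by the narrow margin of 4.02 against 4.00, with a log2 difference of −0.53 (exact permutation p = 0.1, adjusted p = 0.233) and of −0.65 without HFpEF replicate 3. Cox8b and Cox7a1 are also transcribed in brown fat. A list of 7 brown adipocyte markers that holds both summed to 1004 to 1418 FPKM in Chow and 448 to 725 in HFpEF. Nearly all of that sum was Cox8b and Cox7a1, so it restates their values and does not measure brown fat. Ucp1, the defining marker, was listed at 0 in Chow and at 6.00, 8.33 and 0 in HFpEF. The part of fat cells in the values of either gene was not tested.

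The gene with the most negative value belonged to subunit 7a. Cox7a1, the heart and muscle form (chr7:30184144-30186078, plus strand), measured 372, 417 and 493 FPKM in Chow and 239, 239 and 146 in HFpEF. Its log2 fold change was −1.07 ± 0.24 (SE, limma adjusted p = 0.110), and −0.83 (limma adjusted p = 0.0191) without HFpEF replicate 3. Cox7a2, the ubiquitous form (chr9:79755361-79759878, minus strand), measured 266, 297 and 262 FPKM in Chow and 198, 197 and 77.5 in HFpEF. In replicate 3 Cox7a2 stood at 28.2% of its Chow mean. Their ratio was 1.40, 1.40 and 1.88 in Chow and 1.20, 1.21 and 1.88 in HFpEF, and the groups overlapped (log2 difference −0.14, exact permutation p = 0.5, adjusted p = 0.583). The overlap rests on HFpEF replicate 3, and without it the ratios were separate with a log2 difference of −0.35. The difference also depends on Chow replicate 3, with its ratio of 1.88, and without that library it was 0.00076.

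Less abundant forms gave small values. Cox4i2, an oxygen-responsive form of subunit 4, measured 9.45, 12.3 and 11.0 FPKM in Chow and 9.07, 6.37 and 7.95 in HFpEF, and its ratio to Cox4i1 overlapped between groups. Cox6b2, the testis form of subunit 6b, measured 1.08, 1.31 and 1.87 FPKM in Chow and 1.37, 1.60 and 1.07 in HFpEF, with as few as 17 reads in a library. Its ratio to Cox6b1 was 0.71 higher in HFpEF on the log2 scale, without overlap (exact permutation p = 0.1, adjusted p = 0.233), beside the lower Cox6b1.

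**Figure D2:**
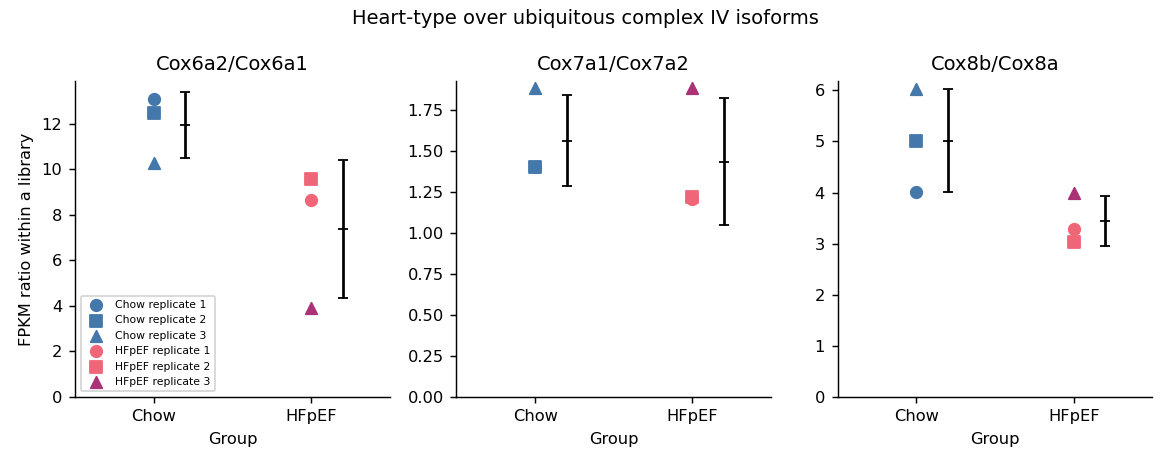
FPKM ratio of the heart and muscle form to the ubiquitous form of complex IV subunits 6a, 7a and 8 within each library, with 1 point per library and bars for the group mean ± SD (n = 3). Ratios of Cox6a2 to Cox6a1 and of Cox8b to Cox8a do not overlap between the 3 Chow and 3 HFpEF libraries, and those of Cox7a1 to Cox7a2 do.

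The start regions of these isoform pairs differ in base composition. The 250 bases before the transcription start are given from RefSeq (GRCm38.p6), to set heart and muscle forms beside their ubiquitous partners, and capitals mark each CpG dinucleotide. A RefSeq promoter was matched for 35 of the 49 member symbols, as 38 promoters.
Cox8b (chr7:140900447-140900696, minus strand): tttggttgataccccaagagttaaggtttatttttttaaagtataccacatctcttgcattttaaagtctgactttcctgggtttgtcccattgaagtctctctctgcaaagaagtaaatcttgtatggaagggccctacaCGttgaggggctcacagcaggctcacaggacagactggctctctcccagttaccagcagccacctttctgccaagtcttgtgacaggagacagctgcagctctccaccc
Cox8a (chr19:7217617-7217866, minus strand): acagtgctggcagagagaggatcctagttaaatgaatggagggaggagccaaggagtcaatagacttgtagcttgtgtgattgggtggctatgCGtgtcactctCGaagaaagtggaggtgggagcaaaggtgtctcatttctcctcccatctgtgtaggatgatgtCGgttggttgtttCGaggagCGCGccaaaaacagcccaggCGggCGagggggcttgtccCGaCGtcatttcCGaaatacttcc
Cox7a1 (chr7:30183921-30184170, plus strand): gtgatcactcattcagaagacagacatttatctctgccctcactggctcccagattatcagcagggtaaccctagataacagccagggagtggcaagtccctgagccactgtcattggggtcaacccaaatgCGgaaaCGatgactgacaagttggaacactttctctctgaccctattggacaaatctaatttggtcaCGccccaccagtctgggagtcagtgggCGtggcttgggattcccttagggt
Cox7a2 (chr9:79759854-79760103, minus strand): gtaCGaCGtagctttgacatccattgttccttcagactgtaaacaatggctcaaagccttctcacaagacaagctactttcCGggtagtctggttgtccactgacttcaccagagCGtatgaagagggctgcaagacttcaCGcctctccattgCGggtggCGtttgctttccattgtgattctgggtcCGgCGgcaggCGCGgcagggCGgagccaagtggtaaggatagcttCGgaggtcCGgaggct
Cox8b held 1 CpG and Cox7a1 held 4, against 11 in Cox8a and 14 in Cox7a2. In the same 250 bases, the median was 13.5 over member promoters and 6 over all 32851 promoters.

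Short motifs for regulators of mitochondrial genes were searched on both strands of 300 bases around each start. The core of the NRF1 site, GCGCATGCG, was in 18.4% of member promoters and 1.75% of all promoters. It occurred at Cycs, Uqcrc1, Uqcr11, Atp5g2, Atp5k, Atp5l and Cox6a1, whose log2 fold changes ran from −1.04 to −0.11, so the genes with the match included the overlapping Cox6a1. The ETS site bound by GABP, CCGGAAGT, was in 10.5% of member promoters and 3.89% of all. The ERR half-site AAGGTCA was in 13.2% and 4.72%, the YY1 motif AAGATGGC in 5.26% and 2.75%, and the CREB site TGACGTCA in 5.26% and 1.79%. TATAAA, added after the data were seen, was in 7.89% and 13.6%. Cox6a1 and Cycs are shown because both carried the NRF1 core while the one overlapped between groups and the other did not. Capitals mark the motifs, which overlap on the 2 strands in Cox6a1 and include a CREB site in Cycs.
Cox6a1 (chr5:115348959-115349208, minus strand): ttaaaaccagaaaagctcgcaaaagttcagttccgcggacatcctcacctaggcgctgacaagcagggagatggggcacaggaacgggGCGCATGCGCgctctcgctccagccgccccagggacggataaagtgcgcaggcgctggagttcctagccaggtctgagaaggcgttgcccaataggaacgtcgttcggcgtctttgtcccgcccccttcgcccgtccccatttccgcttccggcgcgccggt
Cycs (chr6:50566570-50566819, minus strand): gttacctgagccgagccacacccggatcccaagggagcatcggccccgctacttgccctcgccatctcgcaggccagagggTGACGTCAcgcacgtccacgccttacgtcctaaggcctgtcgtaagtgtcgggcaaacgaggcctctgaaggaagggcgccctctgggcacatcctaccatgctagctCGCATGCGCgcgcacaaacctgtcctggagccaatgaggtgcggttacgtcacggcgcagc
A match describes letters in these windows and not occupancy by a factor.

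Complex V was lower in all of its 17 tested genes, with a median log2 fold change of −0.67. Atp5a1, the alpha subunit of the catalytic head and the most abundant of all members, measured 1637, 1646 and 1607 FPKM in Chow and 1115, 1187 and 857 in HFpEF. Its log2 fold change was −0.65 ± 0.19 (SE, limma adjusted p = 0.142). Atp5h, a subunit of the peripheral stalk, measured 324, 322 and 366 FPKM in Chow and 225, 233 and 200.3 in HFpEF (log2 fold change −0.62 ± 0.14, SE, limma adjusted p = 0.108). The lowest Chow library was above the highest HFpEF library. Atp5l, subunit g, measured 27.9, 32.1 and 34.2 FPKM in Chow and 21.5, 22.6 and 18.1 in HFpEF, a log2 fold change of −0.60 ± 0.13 (SE, limma adjusted p = 0.108). Atp5j2, subunit f, measured 125, 146 and 153 FPKM in Chow and 85.9, 101 and 65.8 in HFpEF. Groups were separate for all 17 genes (19.7% of all genes), and the values ranged from −0.92 for Atp5g2 to −0.43 for Atp5s. Relative to cardiomyocyte markers the median of the complex was 0.01.

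Atp5g1, Atp5g2 and Atp5g3 encode the same mature c subunit of the proton-driven ring. Atp5g3 measured 492, 516 and 520 FPKM in Chow and 332, 362 and 244 in HFpEF. Atp5g1 measured 177, 182 and 179 FPKM in Chow and 117, 124 and 67.4 in HFpEF. Atp5g2 measured 112, 100.1 and 76.7 FPKM in Chow and 74.4, 73.9 and 23.1 in HFpEF, and its log2 fold change of −0.92 ± 0.46 (SE, limma adjusted p = 0.278) had the widest error of the complex. Atp5g3 supplied 63.1, 64.7 and 67.1% of their summed FPKM in Chow and 63.4, 64.7 and 73.0% in HFpEF. Atp5g2 supplied 14.3, 12.5 and 9.89% in Chow and 14.2, 13.2 and 6.90% in HFpEF. HFpEF replicates 1 and 2 lay within the Chow range for these shares of Atp5g3 and Atp5g2, and replicate 3 lay outside it. Atp5g1 supplied 22.6, 22.8 and 23.0% in Chow and 22.4, 22.1 and 20.1% in HFpEF. For Atp5g1 every HFpEF share was below every Chow share, by a narrow margin in replicate 1. The ratios to Atp5g3 overlapped between groups (exact permutation p = 0.2 for Atp5g1 and 0.8 for Atp5g2).

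**Figure D3:**
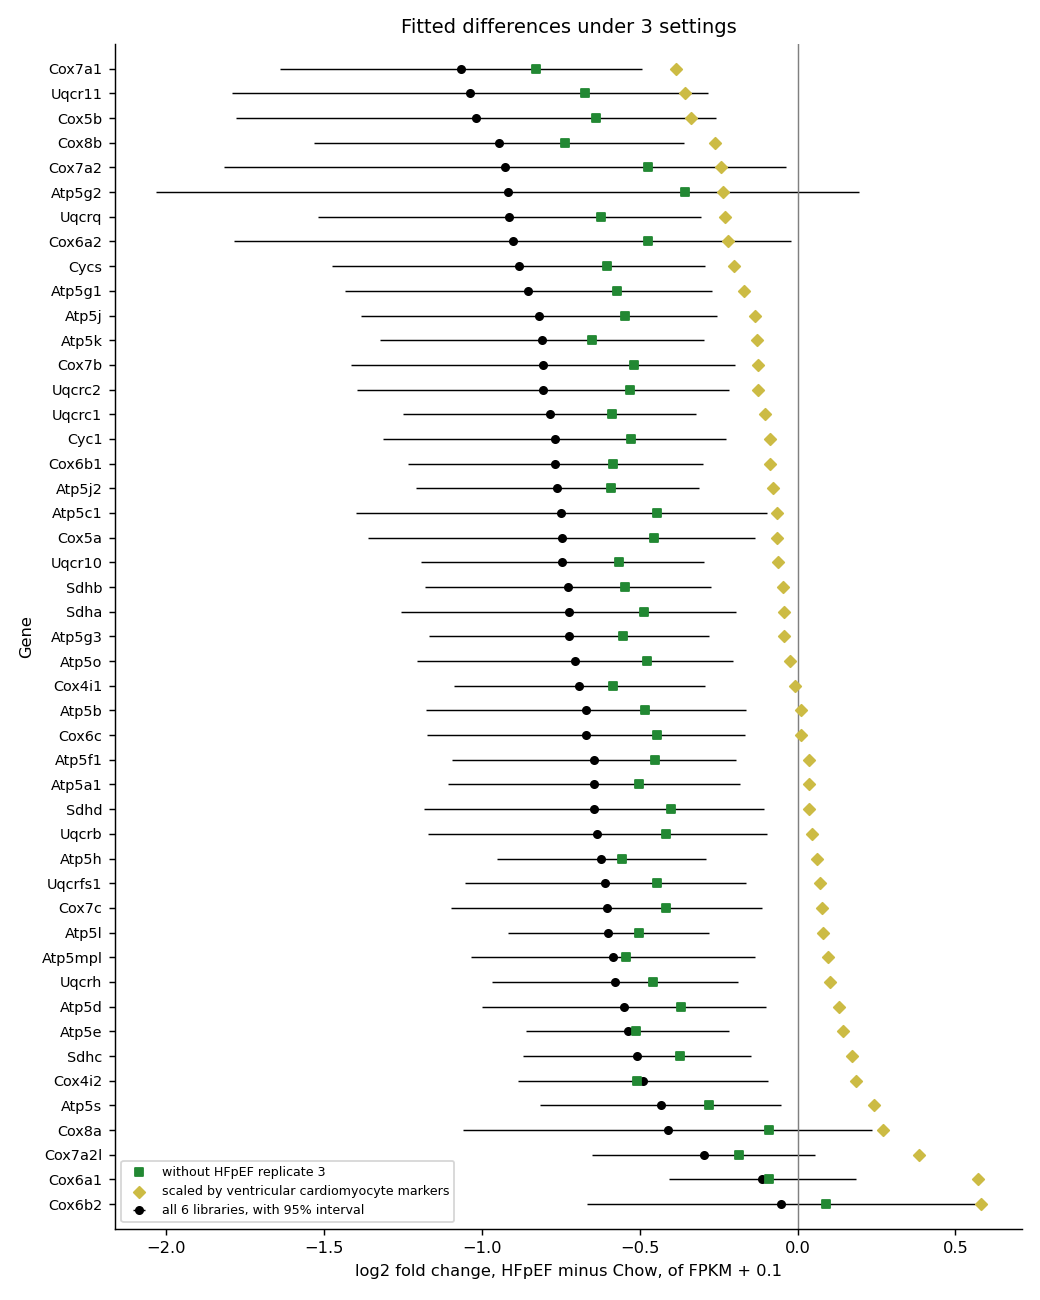
Log2 fold change, HFpEF minus Chow, of FPKM + 0.1 for each tested gene under the fit of all 6 libraries, without HFpEF replicate 3, and with scaling by 12 cardiomyocyte markers, where lines are 95% intervals of the first. All 47 genes are negative in the fit of all 6 libraries, and 26 are negative relative to the cardiomyocyte markers.

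Genes that build or serve the complexes, taken from lists written by hand, were also lower. All 37 tested assembly factors had negative log2 fold changes, with a median of −0.47 (−0.42 under quantile normalization, where the members' median was −0.33), and 24 had an unadjusted limma p under 0.05, against 13.1% of all genes. None passed after adjustment. Without HFpEF replicate 3, 36 of the 37 were negative and 9 fell at a limma adjusted p under 0.05, against 5.36% of all genes. Of these 37 and the 6 carriers and porins together, 30 genes were lower at an unadjusted limma p under 0.05 (13.1% of all genes). With equal nuclear sums 8 were (4.27% of all genes), and relative to cardiomyocyte markers 0 were (0.253% of all genes). Higd1a, an assembly factor of complex IV, had a log2 fold change of −0.64 and Bcs1l, which inserts the Rieske protein into complex III, −0.73. All 6 carriers and porins were lower, with a median of −0.54. Slc25a4, which exchanges ADP for ATP across the inner membrane, measured 1874, 1864 and 1904 FPKM in Chow and 1199, 1271 and 844 in HFpEF. Ndufa4, now counted as a complex IV subunit, had a log2 fold change of −0.85, and testis cytochrome c, Cyct, was listed at 0 throughout. Relative to cardiomyocyte markers, the medians of assembly factors and carriers were 0.21 and 0.14.

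Mitochondrially encoded subunits of complexes III to V had a wider spread. The 6 genes had a median log2 fold change of −1.14, and the median difference in HFpEF replicate 3 was −2.56 against −0.42 and −0.60 in replicates 1 and 2. The catalytic subunit mt-Co1 measured 70810, 76311 and 68440 FPKM in Chow and 55324, 48964 and 15374 in HFpEF. The nuclear members had a median of −1.10 in replicate 3. Of 11 regulators of mitochondrial genes, 8 had negative values (51.2% of all genes), 5 of them with an unadjusted limma p under 0.05 (13.1% of all genes), and 0 were higher at that p. The 3 with positive values were Nrf1 (0.15), Gabpa (0.015) and Yy1 (0.16), named after their values were seen, whose binding motifs were searched above. Ppara, a receptor that drives fat oxidation genes, had a log2 fold change of −0.80, Esrra −0.53, Esrrb −0.81 and Ppargc1b −0.43, each with an adjusted p above the threshold. The ERR half-site was also searched above, and the ERR genes Esrra and Esrrb were thus among the negative ones.

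The members moved with the ventricular cardiomyocyte markers. Those 12 genes had a median log2 fold change of −0.68, and of −0.47, −0.40 and −1.02 in HFpEF replicates 1, 2 and 3, beside −0.55, −0.47 and −1.10 for the members. Among 294 other nuclear genes with a mean FPKM of at least 100, a group added after the data were seen, 238 were negative and the median was −0.55. Fibroblast markers had a median of 1.07, 1.14 and 2.71 in the 3 HFpEF libraries, and macrophage markers summed to 220 to 281 FPKM in Chow and 273 to 909 in HFpEF. Endothelial markers had a median of −0.19. Atrial markers had a median log2 difference of 6.73, 7.56 and 0.29 in HFpEF replicates 1, 2 and 3. In Chow replicates 1, 2 and 3 it was −1.73, −2.57 and 4.64. The part of these cell types in the values of complex II to V genes was not tested.

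**Figure D4:**
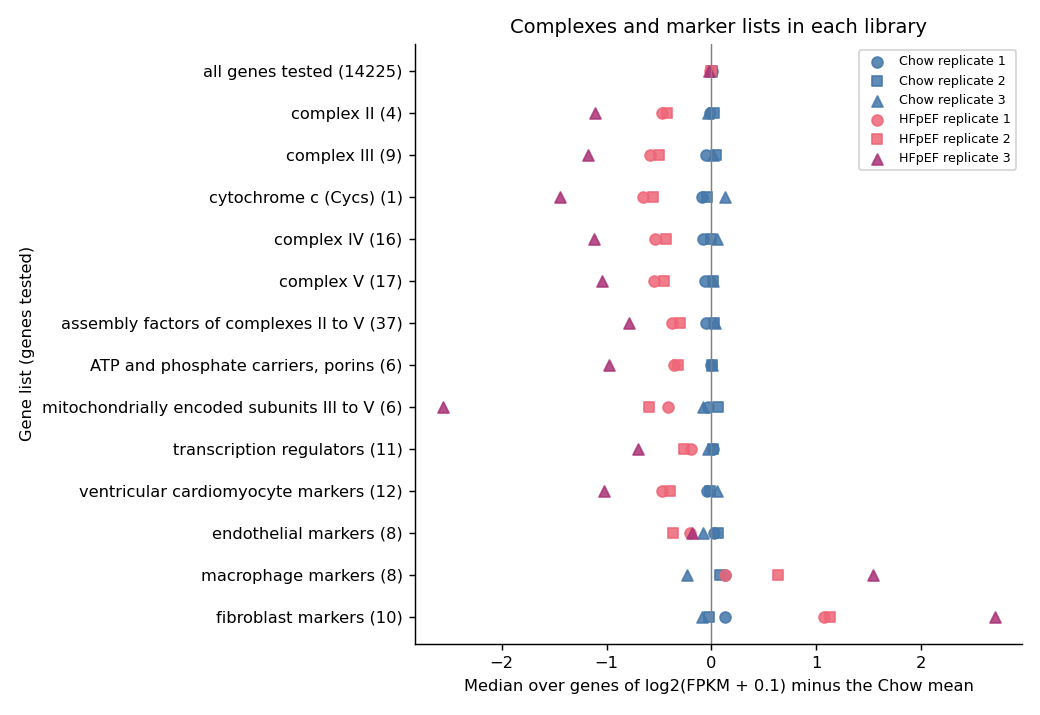
Median log2 difference from the Chow mean in each library for the genes of each complex and for marker and related lists, with 1 point per library. Complex II to V genes and ventricular cardiomyocyte markers lie below 0 in all 3 HFpEF libraries and lowest in replicate 3, where fibroblast markers are highest.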

How the data were processed

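Left ventricular RNA from 3 Chow and 3 HFpEF mice was sequenced, and the sample labels gave each library's group and replicate number. The authors aligned reads with HISAT2, counted them with featureCounts and deposited FPKM per gene, and their processing notes name GRCm38 and mm10. The annotation used is not given in the sources used here, so gene positions and exon lengths came from GENCODE M21. Multiplied by exon length, 96.1 to 96.2% of values above 0 were whole multiples of 1 step within a relative tolerance of 1e-06, and read numbers were recovered from that step. These totals cover counting error only. Members and lists were chosen with earlier results of these data known.

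Deposited FPKM were brought to a common scale by median-of-ratios factors, and log2(FPKM + 0.1) was modelled in limma 3.58.1 (lmFit, eBayes with trend and robust options, R 4.3.3). Only genes that reached 0.5 FPKM in 3 or more libraries entered. P-values were adjusted by Benjamini-Hochberg over 14225 genes. Fold changes on this scale understate those of low genes. The study's rule for differential expression also needs a log2 change of 2 in either direction, which no member reached. Isoform ratios were tested by two-sided exact permutation over libraries in Python 3.11.15 (numpy 2.4.6, pandas 2.3.3, scipy 1.17.1, matplotlib 3.10.9). Per-library values are given for tested genes of the isoform pairs (also Cox7b, whose partner Cox7b2 was too low to test), the 3 members of each complex with the smallest unadjusted p, and the most abundant member of each complex. Other members are given by ranges or single values, and genes outside the group were limited to 4 per list by smallest unadjusted p. Ucp1 and Cyct, too low to test, and Nrf1, Gabpa and Yy1 were named outside that limit after their values were seen. The fit was tested on simulated data in which the libraries of a group shared the same gene means and a fixed dispersion. A library that stands apart as HFpEF replicate 3 does was not simulated. How reads shared by near-identical copies or pseudogenes were assigned is not given, so values of Cox and Atp5g family members may include reads of relatives, and the second Atp5o gene overlaps the first.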

Additional observations from a re-analysis of the deposited data

How the results depend on the processing

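Of 442 values of the 26 named genes under the alternatives, 407 kept both direction and side of the threshold, 20 passed the threshold (all without HFpEF replicate 3) and 15 changed sign. Under quantile normalization, 23 members had an unadjusted limma p under 0.05 with lower values (11.8% of all genes), and the median was −0.33. There 19 assembly factor and carrier genes passed in place of 30, and Cox6a1 was at 0.15 and Atp5a1 at 0.076. With equal sums of nuclear genes, 8 assembly factor and carrier genes passed (4.27% of all genes), with Cox6a1 at 0.14 and Cox6b2 at 0.18. Scaling by ventricular cardiomyocyte markers left 1 member lower and 2 higher at an unadjusted limma p under 0.05, against 36 and 7704 of all 14225 genes. The members' median was then −0.042, against 0.65 over all genes, and 0 assembly factor and carrier genes passed. Signs then changed for Cox6a1 (0.57), Cox8a (0.27), Cox4i2 (0.18), Cox6b2 (0.58), Sdhc (0.17), Uqcrfs1 (0.072), Atp5l (0.080), Atp5h (0.061) and Atp5a1 (0.037). Leaving out HFpEF replicate 3 gave 35 members lower at an adjusted p under 0.05 in limma, and leaving out any other library gave 0. Over all of these fits 28 to 43 members were lower at an unadjusted p, and 16 to 30 assembly factor and carrier genes. In these fits 7.51 to 14.8% of all genes were lower at the unadjusted p. Without one library the Cox7a1 to Cox7a2 log2 difference ran from −0.35 to 0.00076 and that of Atp5g2 to Atp5g3 from −0.42 to 0.20, and Cox6b2 was between −0.22 and 0.15. FPKM as deposited, other pseudocounts and filters gave the same 42 members and 30 assembly factor and carrier genes by count, voom on recovered reads gave 41 and 29, and eBayes without trend and robust options gave 40 and 29. The cause of these differences was not tested.

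The replicate numbers did not pair the samples (correlations of deviations −0.041, −0.073 and −0.057). With the replicate block, 41 members had an unadjusted p under 0.05 with lower values and 0 had an adjusted p under 0.05. With 3 mice per group an exact permutation p cannot go below 0.1. Depth limits only the low genes, since 40 of the 47 members had at least 1000 reads in every library.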
